A study of Mus musculus with 42 samples.

Results

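The change in the response of mouse bone marrow-derived macrophages to the synthetic glucocorticoid dexamethasone (Dex) between 8 h and 24 h of treatment was described across 11160 genes. The members are 24 of the series' 42 libraries, taken by their titles: all those with Dex or vehicle at 24 h or 8 h. They form 8 groups of 3 libraries: Dex KO, Dex WT, vehicle KO and vehicle WT at 24 h, and the same 4 at 8 h. KO stands for macrophages lacking MS4A4A, a tetraspan membrane protein of the Ms4a family, and WT for the wild type; the labels give neither strain nor age, nor which part of the gene was removed. All cells were grown for 6 days in 50 ng/ml macrophage colony-stimulating factor (M-CSF), detached, replated and given 1 µM Dex or vehicle on the following day. Nothing in the labels ties the 3 libraries of a group to different animals or cultures, so the p-values measure only the spread between these libraries, which may be technical.

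Dex binds the glucocorticoid receptor, a nuclear receptor that enters the nucleus, switches on genes with response elements nearby and dampens inflammatory transcription. Some of its direct targets, such as Fkbp5, Tsc22d3 and Per1, restrain the receptor itself, inflammatory signalling or the circadian clock, so an early response can be followed by feedback. M-CSF keeps bone marrow-derived macrophages both alive and dividing, and glucocorticoids are known to push macrophages towards clearing dying cells and away from antigen presentation.

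The 24 libraries held 19668905 to 32121970 estimated counts (median 27629028), and levels are given as CPM (counts scaled to a common library size). Ms4a4a itself was retained at a reduced level in the KO libraries. It stood at 747, 802 and 747 CPM in Dex KO and 1499, 1683 and 1580 CPM in Dex WT libraries at 24 h, and at 368, 424 and 379 CPM in Dex KO and 596, 649 and 647 CPM in Dex WT libraries at 8 h. Vehicle KO libraries had 93.0, 179 and 53.5 CPM at 24 h, against 213, 142 and 148 CPM in vehicle WT libraries. At 8 h the vehicle KO libraries had 24.2, 27.5 and 35 CPM, against 67.0, 71.7 and 80.1 CPM in vehicle WT libraries. KO lay below WT in each of these sets except vehicle at 24 h, where replicate 2 of the vehicle KO group lay above 2 of the WT libraries. That library also stood apart from the other vehicle libraries at 24 h in the direction of Dex, by 0.31 (log2) over 148 genes raised more than 4-fold by Dex at 8 h and by -0.34 over 64 genes lowered as much. The other 5 lay between -0.07 and 0.11 and between -0.03 and 0.11 on these sets, so counts are also given without it. The 10 macrophage markers were all present, with summed levels of 34644 to 42741 CPM in Dex and 30853 to 40185 CPM in vehicle libraries at 24 h. At 8 h the sums were 22701 to 29078 CPM in Dex and 23488 to 28186 CPM in vehicle libraries. A sum does not show single markers. Of 15 genes in a list of macrophage identity, 4 were called higher and 5 lower with Dex at 24 h, where 26.8% of all genes went each way. At 8 h 4 were called higher and 3 lower, where 27.5% and 24.7% of all genes were. Of 8 stromal markers 5 were measured, and their sums in each group are given beside the late-rising genes. The 7 T, NK and B cell markers used to check identity were not analysed here, and 2 genes of a longer lymphocyte list, Cd4 and Cd79b, are described among the late repressions.

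For each gene the effect of Dex is its log2 difference from vehicle, averaged over KO and WT, and the shift is the effect at 24 h minus that at 8 h. A total of 2888 genes (25.9% of those tested) had a shift at an adjusted p under 0.05 by edgeR's quasi-likelihood test with Benjamini-Hochberg adjustment. Of these 1107 were shifted upwards (9.92%) and 1781 downwards (16.0%). Shifts of more than 2-fold were mostly downward, with 453 genes (4.06%) against 64 upward (0.573%). The Dex effect itself was called for similar numbers of genes at the later and the earlier time, 2991 higher (26.8%) and 2993 lower (26.8%) at 24 h and 3071 higher (27.5%) and 2758 lower (24.7%) at 8 h. Without replicate 2 of the vehicle KO group at 24 h the shift was called in 2804 genes, 1102 upwards and 1702 downwards, and 2665 of these were among the 2888. Because both times have their own vehicle libraries, a shift can come from either arm. The 24 h over 8 h change was called in the Dex libraries for 2634 genes higher (23.6%) and 3110 lower (27.9%), and in the vehicle libraries for 1013 higher (9.08%) and 896 lower (8.03%).

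The 2888 genes were sorted by their calls at the 2 times. Late genes had no call at 8 h and one at 24 h, and there were 282 late inductions (2.53% of all genes) and 605 late repressions (5.42%). Growing effects were called at both times and larger at 24 h, for 114 inductions (1.02%) and 262 repressions (2.35%). Fading effects were called at 8 h and smaller or not called at 24 h, for 746 inductions (6.68%) and 593 repressions (5.31%); of these 1339 genes 569 were still called at 24 h. Reversing genes were called at both times with opposite sign, 94 turning to higher with Dex (0.842%) and 148 to lower (1.33%). The remaining 44 shifted genes fell in none of these classes. The late repressions were the class with most shifts over 2-fold, 238 of 605, against 96 of 746 fading inductions, 62 of 262 growing repressions, 56 of 148 genes reversing to lower and at most 31 in any other class. For comparison, 2804 genes were called at both times with the same sign and had no called shift, which does not show that their effects were equal. The called genes nearest the threshold were Kdsr and Acp1, with shifts of 0.30 and -0.22, and the nearest outside it were Nme2 and Ttll5, with shifts of -0.32 and -0.38.

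**Figure D1:**
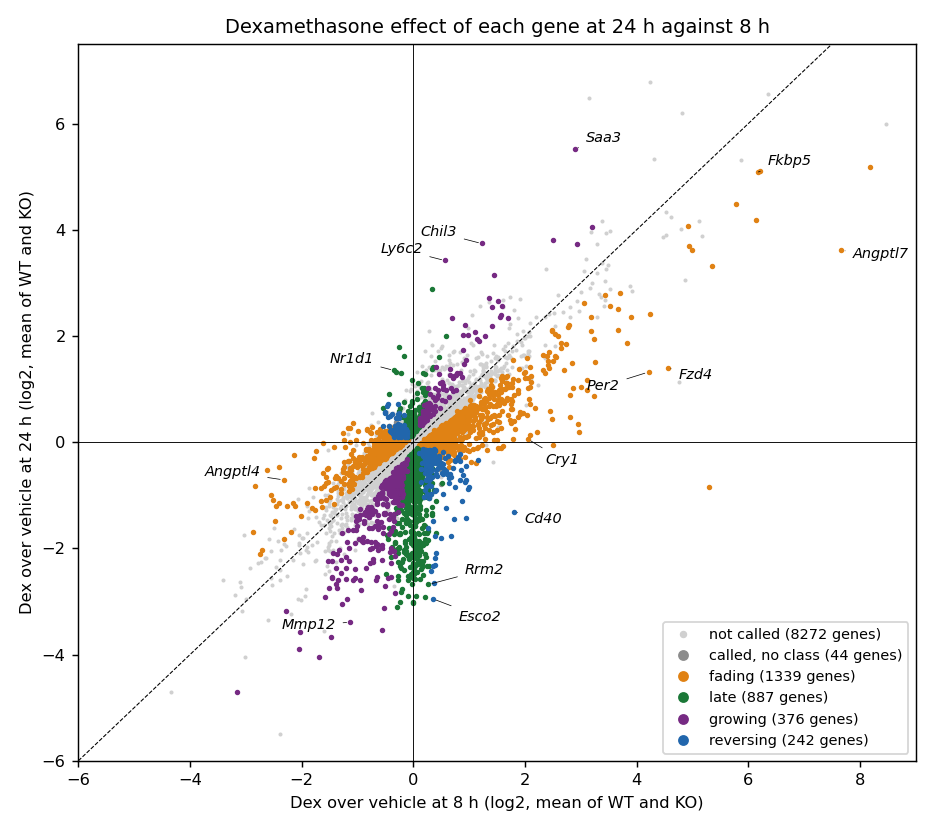
Each point is 1 of 11160 genes, with the effect of Dex at 8 h on the x axis and at 24 h on the y axis (log2, Dex over vehicle, averaged over KO and WT), coloured by class; the diagonal marks equal effects. The 605 late repressions hang below zero on the y axis near zero on the x axis, and the 746 fading inductions lie on the right below the diagonal.

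In each class the median change lay mainly in the Dex libraries. Late repressions had a median change of -0.81 (log2, 24 h over 8 h) in Dex libraries and -0.10 in vehicle libraries. Late inductions changed by a median of 0.32 with Dex and -0.01 with vehicle, and fading inductions by -0.41 with Dex and 0.05 with vehicle. The Dex arm was itself called for 2621 of the 2888 genes, where 51.5% of all genes tested had a Dex arm call. The vehicle arm was called for 734 of the 2888, where 17.1% of all genes tested had a vehicle arm call. For 306 genes (10.6%) the vehicle libraries moved more than the Dex libraries, and 137 of those were fading inductions (18.4% of that class). For some of the named genes where this holds, it is stated beside their values.

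**Figure D2:**
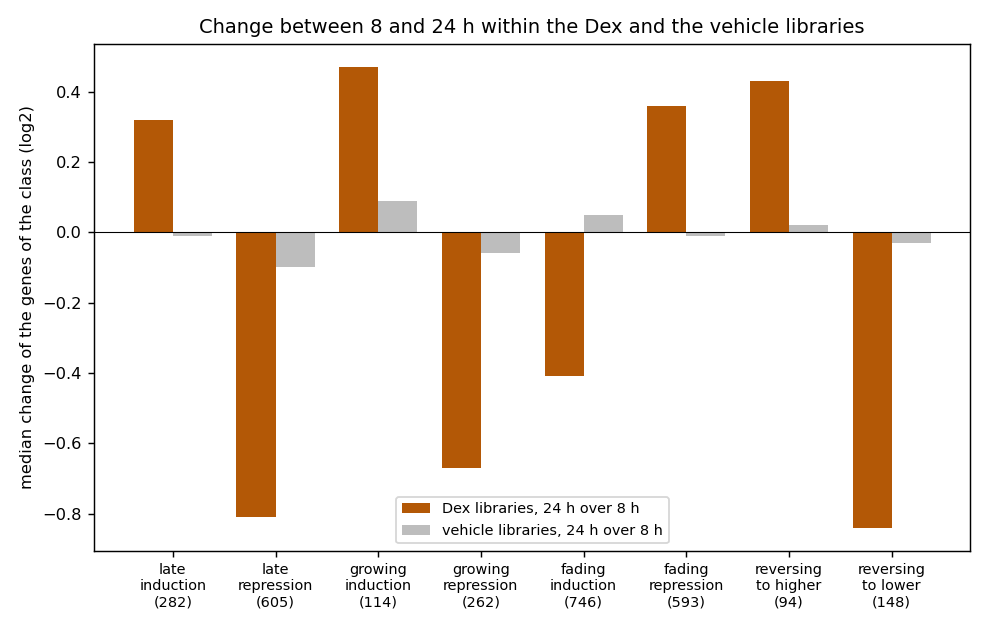
Bars give the median change from 8 h to 24 h (log2, 24 h over 8 h, y axis) over the genes of each class (x axis), in Dex libraries (brown) and vehicle libraries (grey). Late repressions and genes reversing to lower show medians of -0.81 and -0.84 in Dex libraries, and the grey bars of all 8 classes lie between -0.10 and 0.09.

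Transcripts of mitosis and DNA replication were lower with Dex at 24 h, 32 of 32 and 39 of 41 genes, and fewer were so at 8 h, 1 of 32 and 14 of 41. Of all genes 26.8% were lower at 24 h, 24.7% were lower at 8 h and 16.0% were shifted downwards. Of 32 mitosis genes measured 32 were shifted downwards and 30 of them were late repressions, with a median effect of -1.97 at 24 h and -0.02 at 8 h. Their Dex and vehicle libraries did not overlap at 24 h for any of the 32 genes, against 28.7% of all genes without overlap at that time. At 8 h they overlapped for every one of the 32, where 37.2% of all genes had no overlap. From 8 h to 24 h 22 of the 32 also fell in the vehicle libraries and 1 rose, with a median change of -0.35. Over all genes 8.03% fell with vehicle. In the Dex libraries all 32 fell, with a median change of -2.29. Of 41 DNA replication genes 38 were shifted downwards and 0 upwards, with a median effect of -1.37 at 24 h and -0.11 at 8 h and a median shift of -1.01. The median shift over all 11160 genes was -0.01. Within the replication list 23 genes were late repressions, 11 growing repressions, 2 reversed to lower and 2 were fading inductions.

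Rrm2 encodes the regulated subunit of ribonucleotide reductase, which makes the DNA precursors, and lies on chromosome 12 of GRCm38 from 24708241 to 24714146. At 24 h it stood at 7.38 to 19.3 CPM in the 6 Dex libraries (median 10.3) and at 55.6 to 108 CPM in the 6 vehicle libraries (median 68.3). At 8 h it stood at 79.1 to 92.8 CPM with Dex (median 89.2) and 62.8 to 81.9 CPM with vehicle (median 73.4). The groups were far apart at 24 h, with Dex low, and overlapped slightly at 8 h, with Dex the higher. The Dex effect was thus -2.68 at 24 h and 0.27 at 8 h, a shift of -2.95 ± 0.21 (SE; adjusted p = 9.84e-13 by edgeR's quasi-likelihood test with Benjamini-Hochberg adjustment). Esco2, the cohesin acetyltransferase of S phase, had 0.92 to 3.07 CPM with Dex and 7.39 to 13.1 CPM with vehicle at 24 h, against 15.4 to 18.3 CPM with Dex and 11.1 to 16.2 CPM with vehicle at 8 h, and reversed to lower with a shift of -3.31. E2f7, an E2F family repressor, shifted by -3.11, the Fanconi anaemia protein gene Fanci by -3.03, the mitotic kinase gene Pbk by -3.01, the recombination gene Rad54b by -2.80 and Neil3, a DNA glycosylase, by -2.75. Uhrf1, which keeps DNA methylation through replication, and the replication initiation gene Mcm10 were already lower at 8 h and shifted further by -2.60 and -2.5. Among mitosis genes Nusap1 and Prc1, which bundle spindle microtubules, shifted by -2.60 and -2.17, the kinetochore gene Ndc80 by -2.29 and the kinetochore motor gene Cenpe by -1.80.

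Regulators of entry into S phase moved less uniformly. Of 15 G1 cyclin, kinase and inhibitor genes 10 were shifted downwards and 1 upwards (8 and 1 without replicate 2 of the vehicle KO group at 24 h), with a median shift of -0.66. Over all genes 16.0% were shifted downwards and 9.92% upwards. The E-type cyclins, which drive S phase entry with Cdk2, fell late: Ccne1 shifted by -1.90 and Ccne2, which was higher with Dex at 8 h, reversed with a shift of -2.69. Cdk6 and Cdk2 were late repressions with shifts of -0.98 and -0.66. Ccnd3, a D-type cyclin, was a fading induction, with an effect of 0.19 at 24 h and 1.01 at 8 h. The inhibitor gene Cdkn2c also reversed to lower, with effects of -0.90 at 24 h and 0.41 at 8 h. Pcna and Myc, chosen after their values were seen, were lower with Dex at both times without a called shift: Pcna by -1.43 at 24 h and -1.12 at 8 h, and Myc, a growth-promoting transcription factor, by -1.24 at 24 h and -1.31 at 8 h.

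Genes of MHC class II antigen presentation were also among the late and growing repressions. Of 10 MHC class II genes measured 4 were shifted downwards and 0 upwards (4 and 1 without replicate 2 of the vehicle KO group at 24 h), with a median effect of -0.74 at 24 h and -0.13 at 8 h. Of all genes 16.0% were shifted downwards and 9.92% upwards. H2-Aa, the alpha chain of the class II molecule I-A (chromosome 17 of GRCm38, 34282744 to 34287823), had 10.7 to 16.1 CPM in Dex libraries (median 12.4) and 34.7 to 65.8 CPM in vehicle libraries (median 55.9) at 24 h. The earlier values were 69.6 to 93.2 CPM with Dex (median 74.7) and 84.1 to 127 CPM with vehicle (median 89.1). Vehicle libraries also fell between the times, by 0.83 on the log2 scale, and the Dex libraries fell further, so that the groups overlapped only at 8 h. The shift was -1.80 ± 0.20 (edgeR quasi-likelihood, Benjamini-Hochberg adjusted p = 1.3e-08). The beta chain genes H2-Ab1 and H2-Eb1 shifted by -1.49 and -2.09, and the invariant chain gene Cd74 by -0.98. The H2 genes are similar to one another, and the counting could have split reads between them. The 17 MHC class I presentation genes moved otherwise, 3 shifted upwards and 2 downwards, with a median shift of 0.09. At 24 h 5 of these 17 were higher with Dex and 0 lower, where 26.8% of all genes were higher and 26.8% lower. Ciita, the master activator of class II genes and chosen after its values were seen, had effects of -2.40 at 24 h and -2.39 at 8 h and no called shift. Of 42 interferon-stimulated genes 8 were shifted downwards and 0 upwards (5 and 0 without replicate 2 of the vehicle KO group at 24 h), a share near the 16.0% of all genes shifted downwards, with a median effect of -0.59 at 24 h and -0.24 at 8 h. In the vehicle libraries alone 21 of these 42 genes were lower at 24 h. Oas3, which makes the second messenger of RNase L, had an effect of -1.05 at 24 h and 0.09 at 8 h, and Xaf1, a pro-apoptotic interferon target, shifted by -0.65. Ifit3b and Oas1g shifted by -1.77 and -0.63 but have close copies between which reads could be split. Further late repressions were Itgax, the CD11c integrin chain (-1.77), Phgdh, the first enzyme of serine synthesis (-1.55), Cd4 (-1.38) and the B cell receptor chain gene Cd79b (-1.24).

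Late inductions were smaller, with 16 of 282 over 2-fold. Nr1d1 encodes REV-ERB alpha, a repressor of the clock gene Arntl, on chromosome 11 of GRCm38 (98767932 to 98775333). It had 8.51 to 14.4 CPM with Dex (median 10.6) and 2.62 to 5.43 CPM with vehicle (median 4.42) at 24 h. Its range at 8 h was 2.26 to 3.25 CPM with Dex (median 2.65) and 3.02 to 4.21 CPM with vehicle (median 3.34). The groups were apart at 24 h and overlapped at 8 h, where Dex lay lower without a call. Its shift was 1.69 ± 0.25 (edgeR quasi-likelihood, Benjamini-Hochberg adjusted p = 2.54e-06). P2ry13, a receptor for extracellular ADP, had 23.3 to 33.7 CPM with Dex and 8.26 to 14.2 CPM with vehicle at 24 h, against 9.73 to 15.6 CPM with Dex and 9.27 to 11.1 CPM with vehicle at 8 h, and shifted by 1.13 ± 0.16. Il18bp, the soluble inhibitor of interleukin 18, shifted by 1.08, in part because the vehicle libraries fell by 0.86 on the log2 scale. The chemokine gene Ccl6 shifted by 1.04 and the complement gene C1ra by 0.47. Ccl24, an eosinophil-attracting chemokine, shifted by 1.41, but the call was lost without replicate 1 of the vehicle KO group at 8 h (1.03, adjusted p = 0.161 by edgeR) or replicate 3 of that group at 24 h (1.26, adjusted p = 0.0588 by edgeR).

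Among the late inductions were genes of connective tissue cells. Pdgfrb, a growth factor receptor of fibroblasts and pericytes, had 0.551 to 2.35 CPM with Dex and 0 to 0.775 CPM with vehicle at 24 h, and 0.157 to 0.67 CPM with Dex and 0.213 to 0.867 CPM with vehicle at 8 h; its shift was 2.03 ± 0.64 (edgeR quasi-likelihood, Benjamini-Hochberg adjusted p = 0.0165), with overlapping groups at both times. In the fit without a replicate block it was the only 1 of 11 stromal genes with a called shift, although 10 of them were higher with Dex at 24 h and the median shift was 1.15. Over all genes 26.8% were higher with Dex at 24 h. The 5 measured stromal markers, Col1a1, Col1a2, Col3a1, Pdgfrb and Sparc, summed to 13.5 to 64.6 CPM with Dex (median 32.4) and 6.71 to 23.5 CPM with vehicle (median 11.3) at 24 h. At 8 h they summed to 3.3 to 17.7 CPM with Dex (median 5.86) and 3.9 to 12.6 CPM with vehicle (median 5.91), and none was at 0 in every library. Lox, which crosslinks collagen, shifted by 1.14 and lost its call on leaving out any 1 of 13 libraries (0.86 to 1.10). The part of stromal cells in these shifts was not tested, and in bulk RNA more cells of a type and more RNA per cell cannot be told apart.

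**Figure D3:**
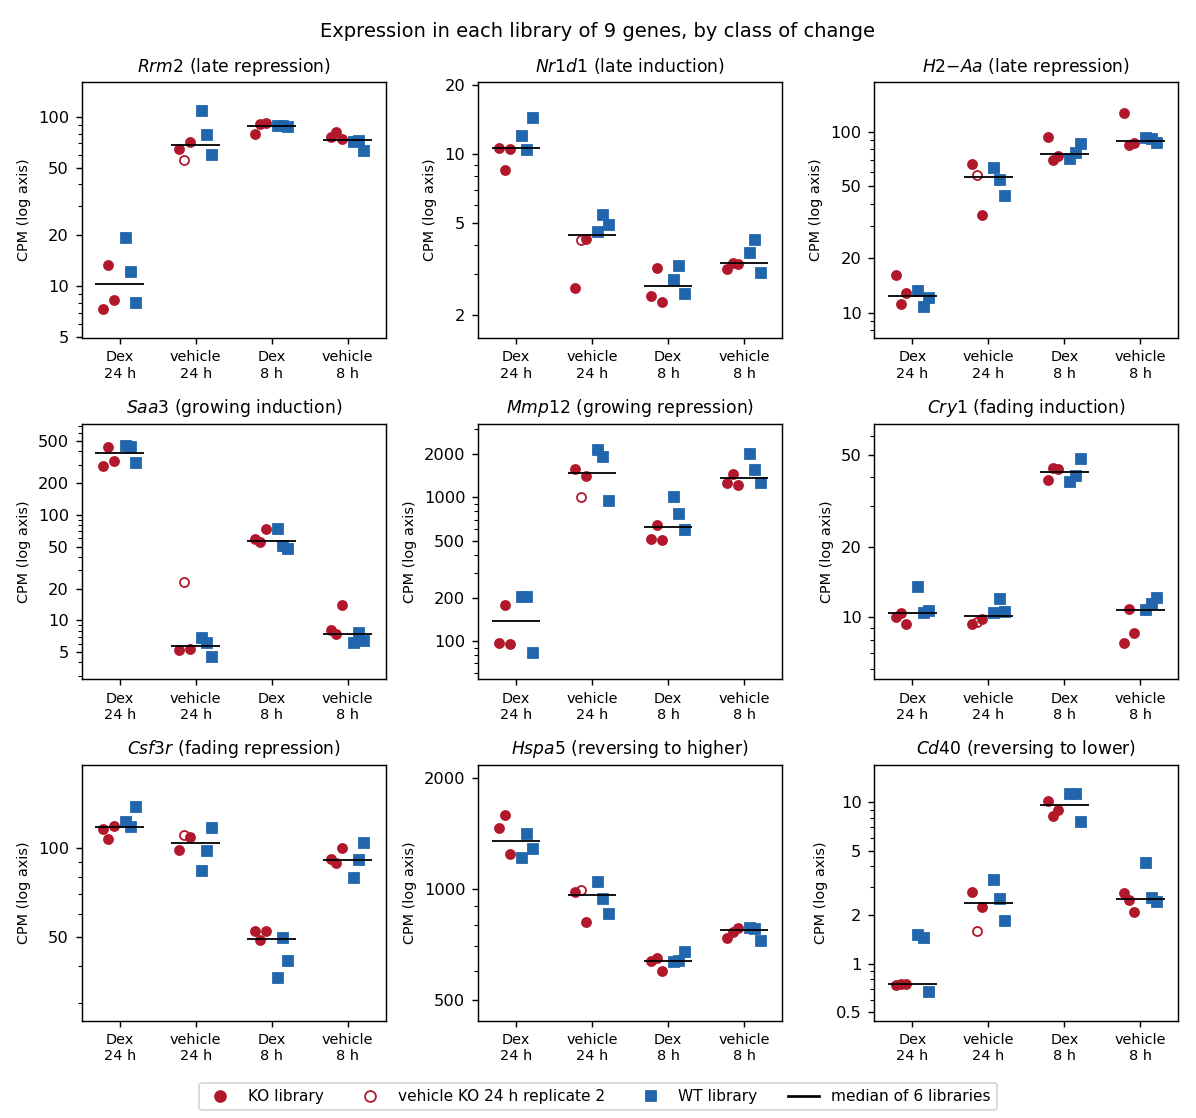
Level of 9 genes in each of the 24 libraries (CPM, log axis), 1 panel a gene, with Dex and vehicle at 24 h and then at 8 h on the x axis; red circles are KO, blue squares WT, the open circle is replicate 2 of the vehicle KO group at 24 h and each bar is the median of 6 libraries. The median of Rrm2 is 10.3 CPM with Dex against 68.3 CPM with vehicle at 24 h, and that of Cry1 42.2 CPM with Dex against 10.8 CPM with vehicle at 8 h.

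Growing inductions contained some acute-phase and late myeloid genes. Saa3, a serum amyloid A protein made by macrophages (chromosome 7 of GRCm38, 46711998 to 46715700), reached 292 to 448 CPM with Dex (median 384) against 4.53 to 23 CPM with vehicle (median 5.73) at 24 h. At 8 h it had 47.5 to 73 CPM with Dex (median 56.9) and 6.09 to 13.9 CPM with vehicle (median 7.48). Dex lay above vehicle in all libraries at both times, 45.8-fold at 24 h and 7.41-fold at 8 h. The shift was 2.63 ± 0.33 (edgeR quasi-likelihood, Benjamini-Hochberg adjusted p = 1.22e-07), and 3.19 without replicate 2 of the vehicle KO group at 24 h. Mmp8, the neutrophil collagenase, had 994 to 1441 CPM with Dex and 110 to 174 CPM with vehicle at 24 h, against 327 to 434 CPM with Dex and 110 to 166 CPM with vehicle at 8 h, and shifted by 1.70 ± 0.15. Chil3, a chitinase-like secreted protein, had 240 to 282 CPM with Dex and 8.83 to 26.7 CPM with vehicle at 24 h and shifted by 2.51 ± 0.38. The monocyte surface gene Ly6c2 shifted by 2.86 ± 0.18, of which -1.65 was the change in vehicle libraries and 1.21 that in Dex libraries. Saa3, Chil3 and Ly6c2 each have close copies, between which the counting could have split reads. The list of 13 late myeloid and acute-phase genes had only 2 shifted upwards and 0 downwards, with a median shift of 0.22. Over all genes 9.92% were shifted upwards. Without replicate 2 of the vehicle KO group at 24 h the list had 4 and 0, with a median of 0.34. The 4 neutrophil markers measured summed to 12.2 to 45.6 CPM with Dex and 18.7 to 61.4 CPM with vehicle at 24 h, ranges that overlap. C1qa, a chain of complement C1q, had effects of 2.19 at 24 h and 1.40 at 8 h. Among 13 Fc receptor genes 4 were shifted upwards and 3 downwards, where 9.92% and 16.0% of all genes were. The inhibitory receptor gene Fcgr2b shifted by 0.84, Fcgr4 by 0.64 and the high-affinity receptor gene Fcgr1 by -0.50.

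Growing repressions included genes of matrix breakdown, lipid uptake and the clearance of dying cells. Mmp12, the macrophage elastase (chromosome 9 of GRCm38, 7344381 to 7369499), had 82.9 to 204 CPM with Dex (median 137) and 951 to 2133 CPM with vehicle (median 1492) at 24 h. The 8 h libraries held 507 to 1012 CPM with Dex (median 618) and 1219 to 2001 CPM with vehicle (median 1362). Dex lay below vehicle without overlap at both times, with effects of -3.39 at 24 h and -1.13 at 8 h. The shift was -2.26 ± 0.31 (edgeR quasi-likelihood, Benjamini-Hochberg adjusted p = 7.64e-07). Lpl, lipoprotein lipase, had effects of -1.88 at 24 h and -0.89 at 8 h. Of 14 genes of the TAM receptors, their ligands and efferocytosis 6 were shifted downwards and 0 upwards (6 and 1 without replicate 2 of the vehicle KO group at 24 h), with a median shift of -0.31. Among all genes the shares were 16.0% downwards and 9.92% upwards. Axl, a receptor for phosphatidylserine bridged by Gas6, had effects of -2.02 at 24 h and -0.77 at 8 h, and Itgb3, an integrin chain that also takes part in engulfment, shifted by -1.50. The bridging ligand gene Pros1 shifted by -0.45 and the pro-resolving annexin gene Anxa1 by -0.70. The receptor gene Mertk differed from them: it was higher with Dex, by 1.22 at 24 h and 1.37 at 8 h, with no called shift (-0.15). The scavenger receptor gene Cd36 shifted by -0.94. Dcstamp, needed for osteoclast fusion, shifted by -1.86, and the folate-cycle enzyme gene Mthfd2 by -1.09.

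Fading inductions held many classical receptor targets. Of 25 glucocorticoid receptor targets 12 were shifted downwards and 1 upwards (10 and 1 without replicate 2 of the vehicle KO group at 24 h), with a median effect of 1.49 at 24 h and 2.09 at 8 h. The shares over all genes were 16.0% downwards and 9.92% upwards. Fading did not mean return to vehicle levels, since 11 of the 12 were still called higher at 24 h. Fkbp5, the co-chaperone that lowers the receptor's hormone affinity (chromosome 17 of GRCm38, 28399094 to 28517527), had 617 to 947 CPM with Dex (median 741) and 12.4 to 69.9 CPM with vehicle (median 15.5) at 24 h. Its levels at 8 h were 948 to 1156 CPM with Dex (median 1021) and 13 to 16.3 CPM with vehicle (median 14.1). Dex libraries were lower at 24 h than at 8 h without overlap, and still above every vehicle library. The shift was -1.09 ± 0.29 (edgeR quasi-likelihood, Benjamini-Hochberg adjusted p = 0.0049). It was -0.53 without replicate 2 of the vehicle KO group at 24 h, which holds the 69.9 CPM. Part of the shift thus lay in that vehicle library and not in the Dex libraries. Dusp1, a phosphatase that switches off MAP kinases, shifted by -1.35, the clock and receptor target Per1 by -1.29, the transcriptional repressor gene Zbtb16 by -1.25 and Tsc22d3, which encodes GILZ, by -0.90 (-0.67 without that library). Klf9, a repressor induced by the receptor, had effects of 3.0 at 24 h and 3.20 at 8 h and no called shift. Ddit4, an inhibitor of mTORC1, shifted by -1.11, a call lost without replicate 2 of the vehicle KO group (-0.78, adjusted p = 0.109 by edgeR) or replicate 1 of the vehicle WT group at 24 h (-0.97, adjusted p = 0.0539 by edgeR). Pik3ip1, an inhibitor of PI3 kinase, shifted by -1.54 and Socs2, a feedback inhibitor of cytokine receptors, by -1.82. The receptor gene Nr3c1 itself was lower with Dex by -0.34 at 24 h and -0.39 at 8 h.

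Some strongly induced genes lost most of their induction. Fzd4, a Wnt receptor, had 0.92 to 2.48 CPM with Dex and 0.462 to 0.742 CPM with vehicle at 24 h, against 11.9 to 16.3 CPM with Dex and 0.439 to 0.867 CPM with vehicle at 8 h, and shifted by -3.15 ± 0.28. Angptl7, a secreted angiopoietin-like protein, had 1.47 to 3.09 CPM with Dex and 0 to 0.308 CPM with vehicle at 24 h, against 13.9 to 28 CPM with Dex and 0.0377 to 0.115 CPM with vehicle at 8 h. Both genes remained above vehicle in every library at 24 h, at a fraction of their level at 8 h. Tgfb3, a TGF-beta ligand, had 1.42 to 4.18 CPM with Dex and 1.11 to 4.35 CPM with vehicle at 24 h, where the groups overlapped, against 5.71 to 10.2 CPM with Dex and 1.41 to 2.81 CPM with vehicle at 8 h. Arl4d, a small GTPase of the Arf family, had effects of 0.88 at 24 h and 3.24 at 8 h. For some scavenger receptors most of the change lay in the vehicle libraries. Cd163, the haemoglobin-haptoglobin receptor, had 9.07 to 12.6 CPM with Dex (median 11.5) and 2.84 to 8.45 CPM with vehicle (median 5.71) at 24 h, and 12.8 to 15.7 CPM with Dex (median 13.7) and 0.754 to 2.93 CPM with vehicle (median 1.55) at 8 h. Its shift of -2.13 ± 0.30 was made of a change of -0.34 in Dex libraries and 1.79 in vehicle libraries. The mannose receptor gene Mrc1 likewise had effects of 0.51 at 24 h and 1.54 at 8 h, with vehicle libraries up by 0.82. Lyve1, a hyaluronan receptor, shifted by -3.00, but lost its call without replicate 2 of the vehicle KO group at 24 h (-2.54) or at 8 h (-2.71) or replicate 1 of the vehicle WT group at 24 h (-2.42), and shifted by -4.65 without replicate 1 of the vehicle KO group at 8 h. The microbial co-receptor gene Cd14 had effects of -0.14 at 24 h and 0.97 at 8 h. The RNA-sensing receptor genes Tlr7 and Tlr8 shifted by -0.68 and -0.63. They were 2 of 3 shifted among 18 Toll-like receptor and adaptor genes, a share close to the 16.0% of all genes shifted downwards.

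Clock genes moved in both directions. Of 17 measured 9 were shifted downwards and 4 upwards, with a median effect of 0.06 at 24 h and 0.73 at 8 h. Over all genes 16.0% were shifted downwards and 9.92% upwards. Cry1, a repressor of the clock's activator pair (chromosome 10 of GRCm38, 85131700 to 85185064), had 9.34 to 13.5 CPM with Dex (median 10.4) and 9.38 to 12 CPM with vehicle (median 10.1) at 24 h. The corresponding 8 h values were 38.2 to 47.7 CPM with Dex (median 42.2) and 7.72 to 12.1 CPM with vehicle (median 10.8). The groups were far apart at 8 h and overlapped at 24 h, and the vehicle ranges of the 2 times overlapped. The shift was -1.99 ± 0.14 (edgeR quasi-likelihood, Benjamini-Hochberg adjusted p = 6.66e-13). Per2, the partner repressor, had 2.2 to 3.47 CPM with Dex and 0.424 to 1.54 CPM with vehicle at 24 h, against 15.3 to 19 CPM with Dex and 0.757 to 1.03 CPM with vehicle at 8 h. Its effects were 0.83, 4.21 and 1.32 at 2, 8 and 24 h. Cry2 had effects of 0.04 at 24 h and 1.5 at 8 h, and the clock output factor gene Tef of -0.33 at 24 h and 1.16 at 8 h. The repressor gene Nr1d1 went the other way, as described among the late inductions, and Nr1d2, its paralogue, shifted by 0.56. Arntl, which encodes the activator BMAL1, had effects of 0.82 at 24 h and 0.81 at 8 h, while Dbp, an output factor, shifted by -0.84 with the vehicle libraries up by 1.25; Nr1d2, Arntl and Dbp were chosen after their values were seen.

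**Figure D4:**
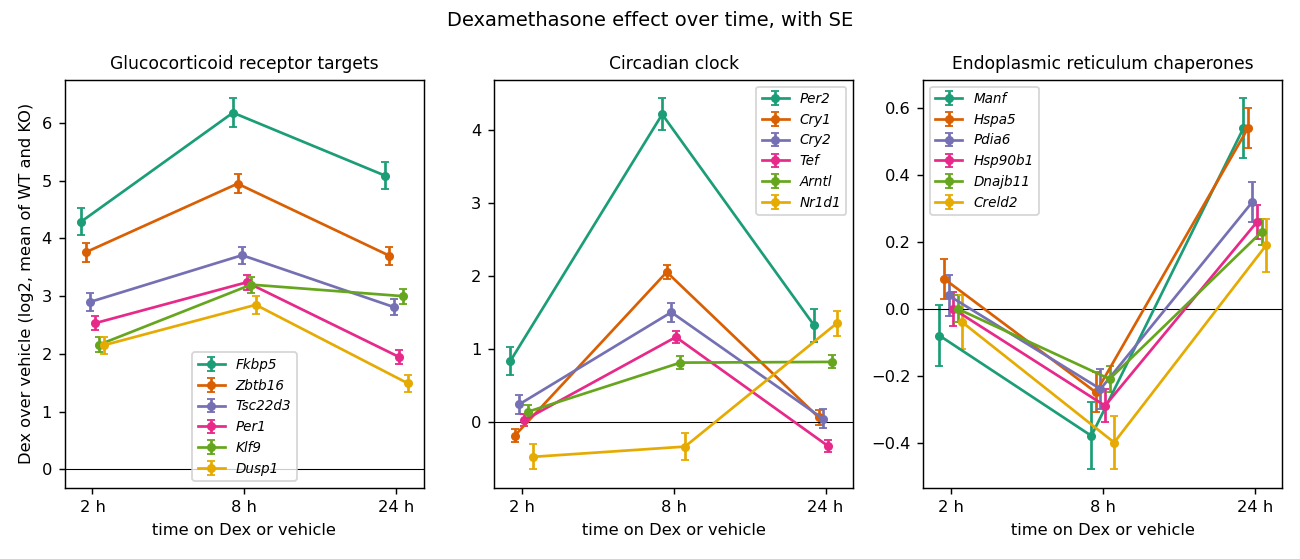
Effect of Dex at 2, 8 and 24 h (log2, Dex over vehicle, averaged over KO and WT, with bars of 1 SE) for 6 receptor targets, 6 clock genes and 6 endoplasmic reticulum chaperones. Per2 peaks at 4.21 at 8 h, Cry1 is at 0.06 at 24 h, and Hspa5 crosses zero, at -0.25 at 8 h and 0.54 at 24 h.

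Fading repressions included receptors and growth-related genes. Csf3r, the receptor for granulocyte colony-stimulating factor, had 107 to 137 CPM with Dex (median 118) and 83.7 to 117 CPM with vehicle (median 104) at 24 h. It had 36.3 to 52.6 CPM with Dex (median 49.2) and 79.2 to 104 CPM with vehicle (median 91.3) at 8 h. The groups were separate at 8 h and overlapped at 24 h, a shift of 1.21 ± 0.14. Angptl4, an inhibitor of lipoprotein lipase, had effects of -0.71 at 24 h and -2.32 at 8 h, the RNA-binding protein gene Samd4 of -1.0 at 24 h and -2.55 at 8 h, and the endothelin receptor gene Ednrb of 0.27 at 24 h and -1.17 at 8 h. Slc40a1, the iron exporter ferroportin, had effects of 0.18 at 24 h and -0.75 at 8 h. Of 20 inflammatory genes 5 were shifted upwards and 0 downwards, where 9.92% of all genes were shifted upwards. The list had a median effect of -0.60 at 24 h and -1.22 at 8 h. Of the 5, 2 were fading repressions, 2 were late inductions and 1 reversed to higher. The chemokine gene Ccl3 was lower with Dex by -0.74 at 24 h and -1.54 at 8 h, and the stress factor gene Atf3 by -0.90 at 24 h and -1.47 at 8 h. Ccl2, another chemokine gene, had 6.5 to 18.2 CPM with Dex and 16.5 to 119 CPM with vehicle at 24 h. At 8 h Ccl2 had 11.4 to 26.4 CPM with Dex and 57.0 to 152 CPM with vehicle. The repression of the cytokine gene Tnf was -2.37 at 24 h and -2.93 at 8 h, and the shift missed the threshold (0.55, edgeR quasi-likelihood, Benjamini-Hochberg adjusted p = 0.0579). Of 27 ribosome biogenesis genes 7 were shifted upwards and 0 downwards (5 and 0 without replicate 2 of the vehicle KO group at 24 h), among them the nucleolar genes Gnl3 (0.61) and Nolc1 (0.54) and the snoRNP genes Dkc1 (0.44) and Fbl (0.32). Dkc1 had effects of -0.16 at 24 h and -0.60 at 8 h. Of 20 NRF2 and thiol defence genes 7 were shifted upwards and 1 downwards, with the thioredoxin reductase gene Txnrd1 at 0.82. Of the 7, 3 were fading repressions, 2 growing inductions and 1 a late induction, and 1 fell in no class.

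Among the genes that reversed to higher were chaperones of the endoplasmic reticulum. Of 24 chaperone and unfolded protein response genes 12 were shifted upwards and 0 downwards, where 9.92% of all genes were shifted upwards. The list had a median effect of 0.09 at 24 h and -0.22 at 8 h. Of the 12, 6 reversed to higher, 4 were fading repressions and 2 late inductions. Hspa5 encodes BiP, the main chaperone of this compartment (chromosome 2 of GRCm38, 34771970 to 34777547). It had 1215 to 1586 CPM with Dex (median 1346) and 814 to 1043 CPM with vehicle (median 961) at 24 h. Earlier, at 8 h, it had 601 to 677 CPM with Dex (median 640) and 722 to 784 CPM with vehicle (median 773). The groups did not overlap at either time, with Dex above vehicle at 24 h and below it at 8 h. The shift was 0.79 ± 0.08 (edgeR quasi-likelihood, Benjamini-Hochberg adjusted p = 1.93e-09). Manf, a secreted stress-induced chaperone partner, had effects of 0.54 at 24 h and -0.38 at 8 h, Hsp90b1, the compartment's HSP90, of 0.26 at 24 h and -0.29 at 8 h, and the co-chaperone gene Dnajb11 of 0.23 at 24 h and -0.21 at 8 h. Creld2 and the disulfide isomerase gene Pdia6, chosen after their values were seen, shifted by 0.60 and 0.56. The stress-pathway genes Xbp1 and Herpud1, chosen in the same way, had no called shift (0.18 and -0.19).

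Because 6 of these chaperone genes reversed together, their promoters were read for the endoplasmic reticulum stress element, searched as CCAAT, 9 bases of any kind and CCACG on both strands of the 250 bases before the start (RefSeq, GRCm38.p6). It was present in 4 of 78 promoter windows of genes reversing to higher (5.13%), against 13 of 11007 windows of all measured genes with a window (0.118%). Since the motif was chosen after these chaperones were seen to reverse, its higher share in their class follows in part from that choice. Late inductions, growing repressions and fading repressions had 1 window with the motif each. These 4 stretches are shown 5′ to 3′ on the gene's strand with the match in capitals, in Creld2 as its reverse complement, and lie at chr15:88819490-88819579 (plus strand) for Creld2, chr10:86705597-86705686 (minus) for Hsp90b1, chr2:34771995-34772084 (plus) for Hspa5 and chr12:17266461-17266550 (plus) for Pdia6.
Creld2: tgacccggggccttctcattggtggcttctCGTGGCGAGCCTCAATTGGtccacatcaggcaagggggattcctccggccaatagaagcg
Hsp90b1: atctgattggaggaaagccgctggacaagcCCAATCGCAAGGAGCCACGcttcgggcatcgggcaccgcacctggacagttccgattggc
Hspa5: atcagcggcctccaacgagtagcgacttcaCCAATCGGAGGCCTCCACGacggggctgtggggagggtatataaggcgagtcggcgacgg
Pdia6: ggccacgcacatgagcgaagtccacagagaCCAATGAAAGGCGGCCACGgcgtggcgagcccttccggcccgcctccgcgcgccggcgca
By the search itself the match starts and ends alike in all 4 and can differ only in the spacer. Hsp90b1 holds 2 matches, of which 1 is in capitals. The starts used here are from RefSeq and the gene bounds given earlier from GENCODE. The Hspa5 stretch therefore lies inside those bounds, and the Cry1 stretch below overlaps them. For the clock, the E-box CACGTG to which BMAL1 and its partner bind was present in 8.62% of the windows of fading inductions and in 8.48% of all windows, and Cry1 carried it at chr10:85185055-85185144 (minus strand), shown with the E-box in capitals.
Cry1: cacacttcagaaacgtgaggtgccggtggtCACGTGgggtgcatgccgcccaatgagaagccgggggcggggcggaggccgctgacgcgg
The E2F motif TTTCCCGC was present in 18 of 572 windows of late repressions (3.15%) and 7 of 152 windows of genes reversing to lower (4.61%), against 188 of all windows (1.71%). In all, 8 motifs were searched, and a match describes the letters only.

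Other reversals concerned immune receptors. Cd40, the costimulatory receptor engaged by T cells (chromosome 2 of GRCm38, 165055627 to 165072948), had 0.667 to 1.5 CPM with Dex (median 0.746) and 1.59 to 3.31 CPM with vehicle (median 2.38) at 24 h. At 8 h it had 7.53 to 11.3 CPM with Dex (median 9.59) and 2.1 to 4.2 CPM with vehicle (median 2.52). The groups were separate at both times and in opposite order. Effects were 0.77, 1.80 and -1.31 at 2, 8 and 24 h, and the shift was -3.11 ± 0.32 (edgeR quasi-likelihood, Benjamini-Hochberg adjusted p = 1.89e-09). Plaur, the urokinase receptor, reversed to lower with effects of -0.35 at 24 h and 0.84 at 8 h. The pyruvate dehydrogenase kinase gene Pdk1 also reversed to lower, with -0.49 at 24 h and 0.32 at 8 h. In the other direction Ier3, an immediate early gene, had effects of -1.93, -0.51 and 0.54 at 2, 8 and 24 h, and the chemokine receptor gene Cxcr3 of 0.30 at 24 h and -0.54 at 8 h. The lectin receptor gene Clec4n shifted by 0.73.

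Other lists had no called shift or shifts in both directions, where 9.92% of all genes were shifted upwards and 16.0% downwards. None of 50 cytosolic ribosomal protein genes and none of 32 oxidative phosphorylation genes had a called shift by edgeR. Of 24 glycolysis and hypoxia genes 9 were shifted downwards and 2 upwards, with Pfkfb3, which makes the activator of phosphofructokinase, at effects of 1.87 at 24 h and 2.65 at 8 h. Of 17 mTORC1 brakes and insulin signalling genes 6 were shifted downwards and 1 upwards, among them Sesn3 and Sesn1, stress-induced mTORC1 inhibitors, at -1.24 and -0.58. Of 24 LXR and lipid genes 7 were shifted upwards and 4 downwards, of 24 sterol synthesis genes 2 upwards and 4 downwards (4 and 4 without replicate 2 of the vehicle KO group at 24 h), and of 21 haem and iron genes 8 upwards and 3 downwards, including haem oxygenase, Hmox1, at 0.61.

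**Figure D5:**
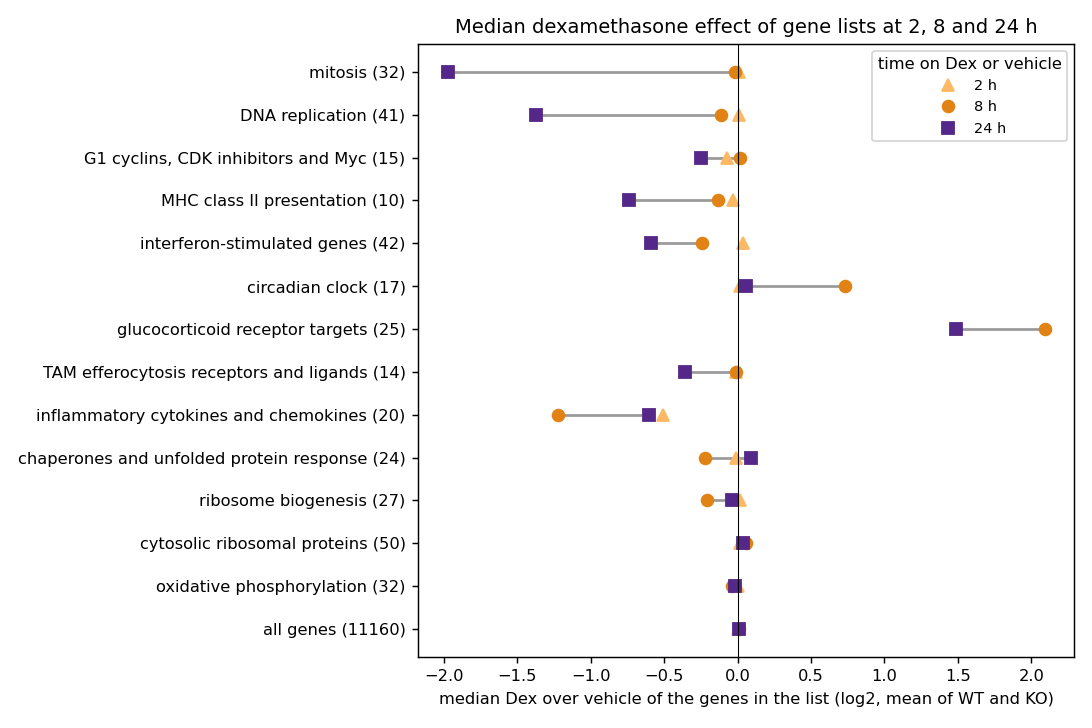
Median effect of Dex (log2, Dex over vehicle, x axis) over the measured genes of each list (y axis), at 2 h (triangles), 8 h (circles) and 24 h (squares). The mitosis list is at -0.02 at 8 h and -1.97 at 24 h, and the receptor target list at 2.09 at 8 h and 1.49 at 24 h.

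The libraries at 2 h entered the sorting only through the scaling and the shared spread estimate of the joint fit. Their calls describe the classes. Fading genes had to be called at 8 h and late genes not, so unlike shares at 2 h follow in part from the sorting. Of the 746 fading inductions 365 were already called higher with Dex at 2 h (48.9%), where 8.14% of all genes were. Of the 593 fading repressions 161 were called lower at 2 h (27.2%), where 6.41% of all genes were. Late genes were rarely called at 2 h in their later direction: 2 of 282 late inductions (0.709%) and 15 of 605 late repressions (2.48%). Growing effects lay between, with 11 of 114 inductions (9.65%) and 26 of 262 repressions (9.92%). Of the genes reversing to lower 24 of 148 were called higher at 2 h (16.2%), and of those reversing to higher 10 of 94 were called lower (10.6%).

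The shift was also fitted in each genotype. It was called for 558 genes upwards (5.0%) and 1116 downwards (10.0%) in KO, and for 394 upwards (3.53%) and 948 downwards (8.49%) in WT. In WT, where same-numbered libraries deviated together, a replicate block within genotype gave 651 upwards and 1232 downwards. The 2888 genes called in the average all had the same sign in KO and WT, which their choice on that average favours. The difference of the shift, KO minus WT, was called for 0 genes by edgeR's quasi-likelihood test with Benjamini-Hochberg adjustment and for 0 by DESeq2, with 316 genes at an unadjusted p under 0.05 by edgeR. Ms4a4a itself had a shift of -0.41 that was not called (edgeR quasi-likelihood, Benjamini-Hochberg adjusted p = 0.158).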

How the data were processed

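Libraries were made from total RNA with the SMART-Seq mRNA LP kit, per the labels' protocols. The authors deposited 1 table of estimated counts (expected counts, not all whole: 69.5% of 468720 values lay within 0.01 of a whole number) for 11160 genes in 42 libraries; its lowest gene total of 256 shows that low genes had been removed. fastp, HISAT2, Salmon and the build GRCm38 are named in the submitters' processing notes; no versions, annotation or strand use are stated there, so overlapping genes and close paralogues are uncertain.

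The estimated counts were rounded. edgeR 4.0.16 (R 4.3.3, limma 3.58.1) fitted all 14 groups in 1 quasi-likelihood model with TMM scaling (factors 0.971 to 1.04 in the 24 libraries), a prior count of 0.125 and Benjamini-Hochberg adjustment over all genes at 0.05; filterByExpr removed 0 genes. The comparison was (Dex minus vehicle at 24 h) minus (Dex minus vehicle at 8 h), averaged over KO and WT. The median SE of that shift was 0.118. CPM are TMM-scaled. No pair of replicates among 24 differed by as little as sampling noise (chi-square per degree of freedom 9.77 to 37.3).

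Named genes included the 4 of each class and direction with the largest shift. These had a mean of at least 5 CPM in some group and the same sign in KO and WT. Also named were the 4 of each list with the lowest p and a fixed set of receptor targets, inflammatory genes and receptors. Not all named genes are described above, among them Il1b of the fixed set. Genes outside these rules are said to be chosen after their values were seen. The members and lists were chosen with earlier results of these data known. On simulated counts with 200 of 11160 genes changed, 55.2%, 83.6% and 100% were recovered at log2 shifts of 0.5, 1 and 2, and 3.64% of calls were false. The simulated libraries were independent of one another and few genes changed, unlike in these data, so these rates need not hold here.

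Replicate numbers were taken to pair libraries only where the deviations of every same-numbered pair correlated above 0.1. This held within WT (lowest 0.244) but not over KO and WT (29 of 36 pairs). Coordinates are from GENCODE M21 on GRCm38 by symbol (10745 genes, 96.3%), and promoters from RefSeq on GRCm38.p6 (8592 genes, 77.0%). Alternatives were DESeq2 1.42.0, median-ratio scaling, a filter at 5 CPM or none, a prior count of 0.5, a replicate block, the 24 libraries alone and each library left out.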

Additional observations from a re-analysis of the deposited data

How the results depend on the processing

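The shift was called in 2888 genes as reported, in 3028 by DESeq2 (2868 of them shared), 2876 with median-ratio scaling, 2888 without a filter and with a prior count of 0.5, 2605 at 5 CPM or more, 2914 with the 24 libraries alone and 2593 to 2884 with each library left out. Blocking on the replicate number gave 3431 genes, and blocking within genotype 3566; the averaged count moved by less than 1.5 times. Among same-numbered Dex and vehicle libraries 10 of 12 pairs correlated above 0.1 (lowest -0.0348). Upward calls moved by more, to 601 with the block and 651 within genotype against 394 in WT, and to 853 within genotype against 558 in KO. No named call was lost, and 7 named genes (9 within genotype) gained one, among them the stromal genes Acta2 (1.25), Col5a1 (1.62) and Tagln (1.06) and the receptor gene Tlr5 (-0.87). With each library left out, late inductions numbered 235 to 310 and late repressions 562 to 627, growing inductions 86 to 137 and repressions 227 to 289, fading inductions 625 to 739 and repressions 516 to 629, and genes reversing to higher 76 to 95 and to lower 116 to 159. Of 153 named genes with a called shift 145 kept the call in all 24 of these fits. The 8 others were Ddit4, Lyve1, Ccl24, Lox, Psmc1, Smad2, Ms4a6b (-0.51; -0.32 and adjusted p = 0.0579 by edgeR without replicate 2 of the vehicle KO group at 24 h) and Tnip3 (-0.90; -0.79 without replicate 2 of the Dex WT group and -0.72 without replicate 1 of the vehicle KO group at 24 h). The sign of an uncalled shift turned only for Klf9, -0.20 as reported, 0.06 without replicate 2 of the vehicle KO group at 24 h and between -0.29 and -0.08 without each other library. Depth limits genes under about 1 CPM, such as Pdgfrb, whose SE was 0.64, while the median SE was 0.118.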
